A study of Mus musculus with 14 samples.

Results

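The nuclear genes of oxidative phosphorylation were followed in c-KIT+ differentiating spermatogonia sorted from testes of C57BL/6J mice, in 2 experiments that altered Cbx2, which belongs to the Polycomb repressive complex PRC1 and binds histones through its chromodomain. Members were all symbols of the count tables that begin with Nduf followed by a, b, c, s or v and a digit, with Uqcr, with Cox4 to Cox8, or with Atp5. This gave 81 of 24984 symbols, of which 38 belong to complex I by name, 8 to complex III, 18 to complex IV and 17 to complex V. Symbols of pseudogenes ending in ps were to be left out, and 0 were found. In the deletion experiment, 2 libraries labelled as deleted came from Rosa26-CreERT2; Cbx2 Flox/Δ animals given 3 injections of 200 µL of tamoxifen at 20 mg/mL, and 2 control libraries came from Rosa26-CreERT2; Cbx2 Flox/+ animals given corn oil. Deleted and control animals therefore share the recombinase and differ in both genotype and tamoxifen. Since Rosa26 is expressed widely, the recombinase is not restricted to germ cells. In the 23KRA experiment, 5 libraries from untreated Cbx2 23KRA/23KRA homozygotes were set against 5 from untreated Cbx2 +/+ animals. Each library was taken as 1 animal, since the protocols name equal numbers of both. Ndufa4, a subunit now placed in complex IV, and its relative Ndufa4l2 were counted with complex I by name, and Atp5s, which is no subunit of the synthase, with complex V.

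Oxidative phosphorylation is the last stage of respiration, in the inner membrane of mitochondria. Complex I takes electrons from NADH, complex III passes them from ubiquinol to cytochrome c, complex IV hands them to oxygen, and complex V uses the proton gradient these steps build to make ATP. A few subunits are encoded in mitochondrial DNA and the rest in the nucleus, so the nuclear genes described here supply most subunits of each complex. Germ cells come to rely more on respiration as they pass into meiosis, and the testis has its own forms of some complex IV subunits, among them Cox6b2, Cox7b2 and Cox8c.

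The promoters of these genes are known targets of NRF1, ETS-family factors such as GABP, and YY1, so short letter strings for these factors were looked for in the promoters. RefSeq (GRCm38.p6) gave promoters of 300 bases, from 250 before to 50 after the start site, for 65 members. The letters GCATGCGC (NRF1), on either strand, were in 13.8% of members (9 of 65) and in 3.93% of the 18660 genes of the count tables that had a promoter. The letters CCGGAAG (ETS) were in 21.5% of members (14 of 65) and 12.7% of those genes, and AAGATGGC (YY1) in 15.4% (10 of 65) and 3.56%. These shares are a description without a test, matches of different strings may overlap, and a match is not a site. By complex, the NRF1 letters were in a promoter of 3 of 32 genes of complex I, 2 of 5 of complex III, 1 of 13 of complex IV and 3 of 15 of complex V. In 8 of the 10 members with the YY1 letters the match began 22 to 38 bases after the start site, and these 10 were Ndufa3, Ndufa9, Ndufb8, Ndufc1, Ndufs4, Ndufs6, Ndufs7, Atp5f1, Atp5j and Atp5j2. Below are the 100 bases before the start site of Ndufa11, as an example with the NRF1 letters, and of the testis forms Cox6b2 and Cox7b2 and the common forms Cox7b and Cox8a that the isoform comparison uses. Capitals mark letters of a match; in Ndufa11 the matches on both strands overlap, and the capitals that end Cox8a belong to an ETS match that crosses the start site.
Ndufa11 (chr17:56717662-56717761, plus strand): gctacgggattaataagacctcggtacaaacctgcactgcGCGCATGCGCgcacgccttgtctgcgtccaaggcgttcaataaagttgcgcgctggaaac
Cox6b2 (chr7:4753095-4753194, minus strand): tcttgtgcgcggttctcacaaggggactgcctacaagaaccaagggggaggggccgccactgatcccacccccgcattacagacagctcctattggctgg
Cox7b2 (chr5:71548206-71548305, minus strand): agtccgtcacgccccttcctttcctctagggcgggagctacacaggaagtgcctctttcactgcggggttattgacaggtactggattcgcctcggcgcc
Cox7b (chrX:106015600-106015699, plus strand): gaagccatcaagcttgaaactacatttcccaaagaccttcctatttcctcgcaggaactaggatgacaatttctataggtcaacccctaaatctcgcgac
Cox8a (chr19:7217617-7217716, minus strand): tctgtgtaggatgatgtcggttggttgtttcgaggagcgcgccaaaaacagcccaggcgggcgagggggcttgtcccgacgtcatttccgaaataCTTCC
Cox6b2, Cox7b2 and Cox7b held none of the 3 strings anywhere in their 300 bases. Cox8a held the ETS letters, at 5 bases before and 32 after the start site. The windows shown had 61% G and C in Cox6b2, 60% in Cox7b2, 44% in Cox7b and 57% in Cox8a.

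Total counts ran from 28169990 to 31166500 per library in the deletion and from 14562564 to 19814511 in 23KRA. An mRNA kit was used for the deletion and a total RNA kit for 23KRA, where ribosomal cDNA was removed, although the labels enter polyA RNA as the molecule of all 14 libraries. Each experiment was therefore scaled and tested alone. Cbx2 itself had 93.9 and 97.7 CPM (reads counted for the gene after every library was brought to one total) in controls and 78.5 and 86.5 CPM in the libraries labelled as deleted, a log2 fold change of -0.21 (SE 0.12; adjusted p by edgeR = 0.971). In 23KRA its range was 53.2 to 83.6 CPM in the wild type and 48.8 to 89.7 CPM in the homozygotes; the counts cover the whole gene and check neither the floxed interval nor the substitutions. Markers of spermatogonia summed to 5330 to 6143 CPM in the deletion and 2646 to 3009 CPM in the 23KRA libraries, with Kit among the genes above 0. Spermatid markers, all 6 of 6 above 0, summed to 2279 to 2954 CPM in the deletion and 216 to 986 CPM in the 23KRA libraries, so transcripts of later germ cells were counted in every library. In bulk RNA, fewer cells of a type and less RNA per cell cannot be told apart.

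The members were among the more abundant transcripts of these cells. Per kilobase of exon, their median mean level in deletion controls was 179.7 CPM per kb, where the median of all tested genes was 6.76, and 62 of 77 were in the highest 10% of tested genes. In 23KRA wild type the median was 68.0 CPM per kb against 7.59 for all genes, and 44 of 76 were in the highest 10%. Complex V had the highest median, 263.4 CPM per kb in deletion controls and 107.4 in 23KRA wild type, and complex I had 123.9 and 62.1. Complex III had 197.7 and 83.7 CPM per kb, and complex IV 192.5 and 50.3. Member transcripts are short, with a median exonic length of 732 bases against 2289 for all symbols with a length.

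**Figure D1:**
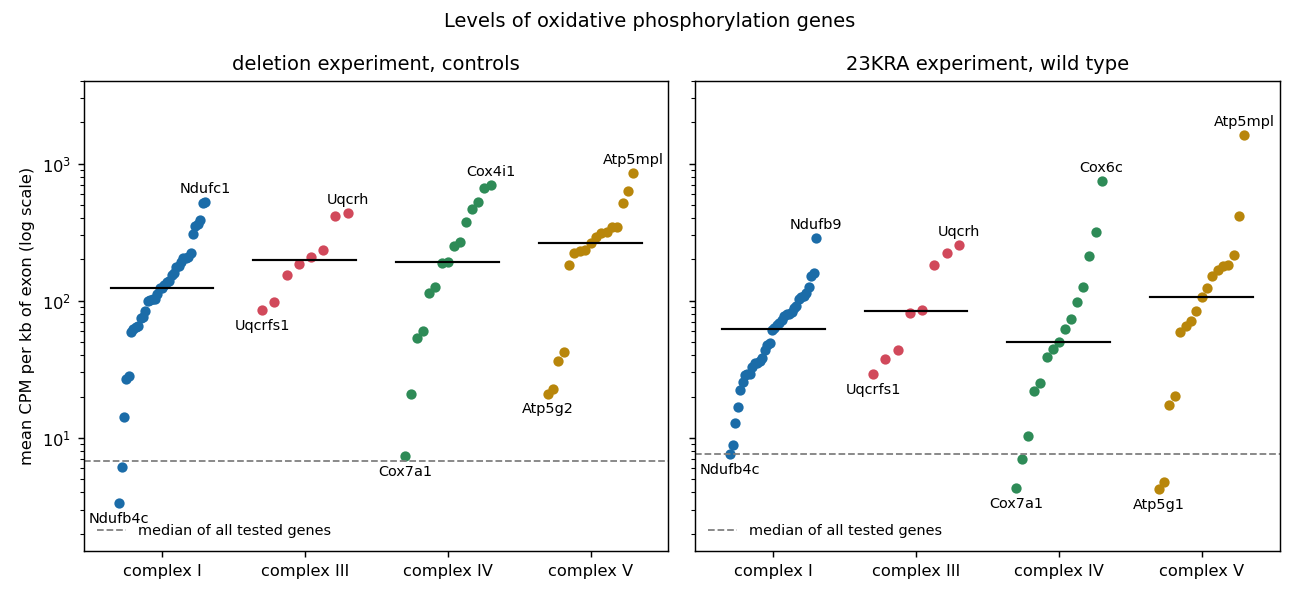
Mean level of each tested member in the reference group of each experiment, in CPM per kb of exon on a log axis, by complex; each point is 1 gene, black lines are complex medians and the dashed line is the median of all tested genes. Complex V has the highest median in both experiments, and Atp5mpl is the highest member in both.

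Within complexes the levels per kilobase spanned wide ranges. Among complex V genes, Atp5mpl, a small membrane subunit of the synthase, was highest at 848.7 CPM per kb in deletion controls and 1616 in 23KRA wild type. Atp5b, the catalytic beta subunit, stood at 633 and 179 CPM per kb, and Atp5a1, the alpha subunit, at 346 and 216. The 3 genes for the c-ring, which code for the same mature protein, differed per kilobase. Atp5g1 had 22.7 CPM per kb in deletion controls and 4.23 in 23KRA wild type. Atp5g2 had 21.0 and 17.4, and Atp5g3, named after its values were seen, 229.9 and 20.3. The exonic length used for Atp5g1, 4778 bases, is the longest of all members, against 724 for Atp5g3. Without length, Atp5g1 had 108.6 CPM and Atp5g3 166.5 CPM in deletion controls. In 23KRA wild type the order was the other way, with 20.2 CPM for Atp5g1 and 14.7 CPM for Atp5g3. Of the 50-base words of Atp5g1, 11.5% also occur in other genes, 366 in number. Of the 50-base words of Atp5g2, 87.4% also occur in transcripts of other genes, so its reads could be lost or split, while Atp5g3 shares 0.

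In complex IV, Cox4i1, a regulatory subunit in contact with the catalytic core, had 692.5 and 316 CPM per kb, and Cox6c, a small structural subunit, 665 and 746. In complex III, Uqcrh, the hinge protein next to cytochrome c1, was highest at 438.7 and 254.4 CPM per kb, and Uqcrfs1, the Rieske iron-sulfur protein, was lowest at 86.1 and 29.2. In complex I, the accessory subunits Ndufc1 (523 CPM per kb) and Ndufb9 (519 CPM per kb) led in deletion controls, and Ndufb9 in 23KRA wild type with 285.6 CPM per kb. Of its core subunits, Ndufs1, which carries iron-sulfur clusters of the electron path, had 104 and 69.3 CPM per kb, and Ndufv1, which binds NADH, 176.4 and 80.6.

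Not all 81 members could be tested. Cox8b, a muscle form, was at 0 in all 14 libraries. Cox4i2, the lung form, and Cox6a2, the muscle form, had at most 14 counts in any library and were not tested in either experiment. Ndufs5, a complex I subunit found in most tissues, had 2, 1, 0 and 3 counts in the deletion libraries and 0 in all 23KRA libraries. Of its 50-base words, 41.2% occur in another gene. The cause of these low counts was not tested, and they are not taken as its level. Ndufa4l2, a hypoxia-linked relative of Ndufa4, passed the filter on low counts in the deletion only. Ndufb4c, which the annotation lists as a processed pseudogene, was tested, but 100% of its 50-base words occur in other genes. Of the 81 members, 35 shared no 50-base word with another gene and 6 shared over 50% of theirs. Exons of 4 members overlap another gene on the same strand and those of 18 a gene on the other strand.

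The same genes took a smaller share of the 23KRA libraries. Members made up 1.36% to 1.49% of the counts of deletion libraries and 0.636% to 0.774% of 23KRA libraries, and 67 of the 76 members tested in both had a lower mean CPM in 23KRA wild type than in deletion controls. The median ratio of those means was 0.436. Cox5a, a subunit on the matrix side of complex IV, had the lowest ratio, with 340.7 CPM in deletion controls and 24.9 CPM in 23KRA wild type, while Atp5mpl had 310.6 and 591 CPM. Kit, animals, depth and the summed markers of spermatogonia and later germ cells all differ between the tables, which were scaled apart. The RNA entering the 23KRA kit is uncertain as said above. The parts of all these in the smaller share cannot be told apart, and no test was made.

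In the deletion, no member passed the test and the fold changes centred near 0. Of 77 members tested, 47 had a log2 fold change (deleted over control) above 0, 61.0% against 49.0% of all 16725 genes tested. Their median log2 fold change was 0.019, where that of all genes was -0.0044. Fold changes of 71 of the 77 lay within 0.2 of 0 on the log2 scale, with a median standard error of 0.11. By the edgeR quasi-likelihood test with Benjamini-Hochberg adjustment, 0 members were called, where 0.0120% of all genes (2 genes) were, and the smallest adjusted p of a member was 0.971. At an unadjusted p under 0.05 were 2 members, both lower in the deleted libraries, and DESeq2 and limma-voom also called 0 members and had 2 at that level. The background share at that level was 2.69% lower and 2.05% higher. Leaving out 1 library leaves a lone library in its group. The members' median log2 fold change was then 0.11 without deleted replicate 2 and -0.059 without deleted replicate 1. It was 0.050 without control replicate 1 and 0.021 without control replicate 2.

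The complexes differed little in the deletion. The median log2 fold change was 0.019 in complex I (22 of 37 above 0), 0.0089 in complex III (4 of 8), 0.033 in complex IV (12 of 15) and 0.011 in complex V (9 of 17). The summed level of all members was 14178 ± 109 CPM in the control libraries and 14340 ± 1076 CPM in the deleted ones (SD, n = 2 each). Groups did not overlap in 8 members that were higher in both deleted libraries and 7 that were lower, 10.4% and 9.09% of those tested, where the shares over all genes were 15.6% and 17.5%.

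The 2 members with an unadjusted p under 0.05 were among the less abundant. Cox6b2, the testis form of a complex IV subunit that faces the intermembrane space (chromosome 7, 4751792 to 4753094, minus strand of GRCm38), had 39.0 and 39.9 CPM in the control libraries and 30.6 and 30.4 CPM in the deleted ones. Both deleted libraries lay below both controls, with a log2 fold change of -0.37 (SE 0.13; unadjusted p = 0.00899, adjusted p by edgeR = 0.971). Spermatid markers summed to 2627 and 2954 CPM in the control libraries and 2279 and 2613 CPM in the deleted ones. Control 1 and deleted 2, 1 library of each group, were close on that sum. Their Cox6b2 values were 39.0 and 30.4 CPM, while their values of Cox8c, a further testis form, were 51.3 and 48.9 CPM. Markers of meiotic spermatocytes summed to 1963 and 1895 CPM in the control libraries and 2053 and 1926 CPM in the deleted ones. Whether the later germ cells bear on the Cox6b2 values was not tested.
Ndufa4l2 (chromosome 10, 127514967 to 127517154, plus strand) had 5.60 and 5.94 CPM in the control libraries and 3.48 and 4.25 CPM in the deleted ones, again without overlap, a log2 fold change of -0.58 (SE 0.21; unadjusted p = 0.0120, adjusted p by edgeR = 0.971). Its exons overlap those of Shmt2 on the other strand, and whether counting used strand is not given in the sources used here. Leydig cell markers (5 of 5 above 0) were also lower in both deleted libraries, with summed levels of 22.03 and 17.2 CPM in the control libraries and 11.9 and 12.8 CPM in the deleted ones, and their part in the Ndufa4l2 values was not tested.

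Apart from Cox7a1 of complex IV, at a log2 fold change of 0.43 and described below, the other members named for each complex had smaller differences. Ndufc2, a membrane-arm subunit of complex I, had 146.8 and 134.5 CPM in the control libraries and 174.7 and 145.2 CPM in the deleted ones, which overlap. Uqcrb, the ubiquinone-binding subunit of complex III, had 127.5 and 124.9 CPM in the control libraries and 157.3 and 129.9 CPM in the deleted ones, a log2 fold change of 0.19 (SE 0.12; adjusted p by edgeR = 0.971). Both deleted values lay above both controls, the second by a small margin. In complex V, Atp5g1, a gene for the c-ring, had a log2 fold change of 0.14 (SE 0.12) and Atp5d, the delta subunit of the central stalk, one of -0.12 (SE 0.11).
Among subunits of higher level, Ndufs1 had 275.5 ± 17.2 CPM in the control libraries and 293 ± 10.1 CPM in the deleted ones, and Cox4i1 529.7 ± 34.4 and 531.5 ± 54.0 CPM (SD, n = 2 each). Atp5a1 had 823.8 and 887.2 CPM in the control libraries and 819.7 and 820.5 CPM in the deleted ones, a log2 fold change of -0.061 (SE 0.10), and Atp5b one of -0.065 (SE 0.10). Each of these log2 differences was smaller than its standard error.

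The deleted libraries lay on opposite sides of the controls. For each member, the deviation of its log2 level from its own mean over the 4 libraries was taken, and the median of these deviations was 0.10 in deleted 1 and -0.082 in deleted 2, with -0.0060 and -0.026 in the controls. In deleted 1, 68 of 77 members were above their own mean, and in deleted 2 only 8 of 77 were. Over all tested genes the same medians were -0.0082 and 0.0021. Members had 15101 CPM in sum in deleted 1 and 13579 CPM in deleted 2, and the controls lay between at 14100 and 14255 CPM. Without deleted replicate 1, 17 of 78 members had a fold change above 0 and their median was -0.059; without deleted replicate 2, 64 of 77 did and it was 0.11. The median near 0 in the deletion is thus an average of a high and a low library, and its direction rests on which of them is kept. The libraries also differed in macrophage and leukocyte markers (6 of 6 above 0), which summed to 45.9 CPM in deleted 1 and 19.5 to 28.9 CPM in the other libraries; their part in the members' levels was not tested.

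**Figure D2:**
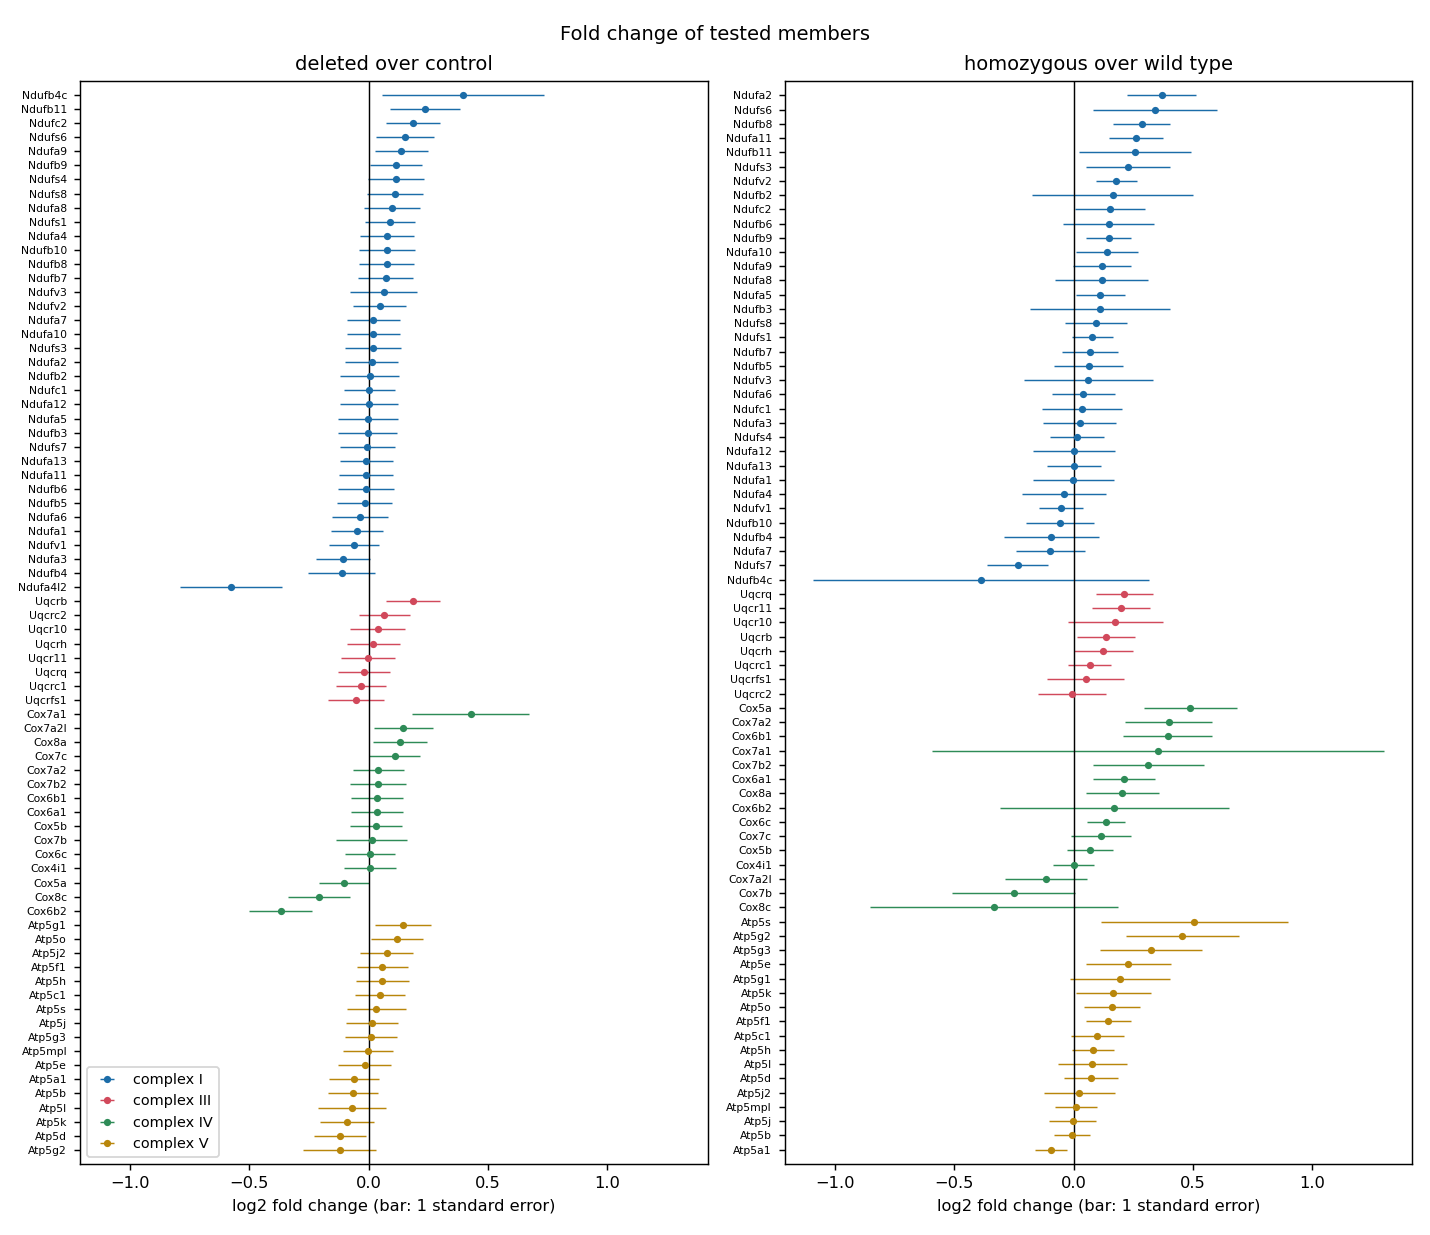
Log2 fold change of the tested members, all but 1 of which are drawn, with 1 standard error, deleted over control at left (n = 2 each) and homozygous over wild type at right (n = 5 each), by complex and ordered by fold change within it. None of the 77 and 76 members passed the test; at left most points lie near 0, and at right most lie above it (61 of 76 with the member not drawn).

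In 23KRA, most members were somewhat higher in homozygotes, but none passed the test. Of 76 members tested, 61 had a log2 fold change (homozygous over wild type) above 0, 80.3% against 50.8% of the 14208 genes tested. Their median was 0.11 on the log2 scale, where that of all genes was 0.0034, and the median standard error of a member was 0.14. By edgeR's quasi-likelihood test 0 members were called, as were 0.00% of all genes (432 genes had an unadjusted p under 0.05), with a smallest adjusted p of 0.9998 among members. At an unadjusted p under 0.05 were 6 members, all higher, 7.89% of those tested, where the background was 1.68% higher and 1.36% lower; DESeq2 and limma-voom called 0 members and had 6 at that level too. Groups did not overlap in 0 members, with shares over all genes of 0.436% higher and 0.274% lower. Members deviate together within a library, so the count above 0 is not a count of independent genes.

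All complexes had a median above 0 in 23KRA. It was 0.074 in complex I (28 of 36 above 0), 0.13 in complex III (7 of 8), 0.17 in complex IV (12 of 15) and 0.10 in complex V (14 of 17). The summed level of the members was 7056 ± 521 CPM in the wild type and 7454 ± 475 CPM in the homozygotes (SD, n = 5 each), a difference smaller than the spread within either group. Of the 76 members tested in both experiments, 39 were above 0 in both and 7 below 0 in both. Among the members tested in each, 61.0% were above 0 in the deletion and 80.3% in 23KRA. Whether the signs of the 2 experiments go together was not tested.

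The 6 members at an unadjusted p under 0.05 came from complexes I and IV. Cox5a had 19.6, 23.0, 20.1, 23.98 and 37.9 CPM in wild-type replicates 1 to 5 and 35.8, 28.6, 33.6, 30.7 and 46.3 CPM in homozygous replicates 1 to 5. The wild-type values were below all homozygous values except for wild-type 5, which was above all but homozygous 5. The log2 fold change was 0.49 (SE 0.20; unadjusted p = 0.0208, adjusted p by edgeR = 0.9998). Cox5a shares 32.05% of its 50-base words with other genes and overlaps Gm26631 on the other strand.
Cox6b1, the common form of the subunit whose testis form is Cox6b2, had 30.3, 52.0, 30.9, 47.8 and 30.9 CPM in the wild type and 47.9, 71.4, 47.0, 49.3 and 36.8 CPM in the homozygotes. Cox7a2, the common liver-type form of a small subunit at the dimer contact, had 35.97, 40.3, 22, 36.8 and 30.8 CPM in the wild type and 42.3, 58.2, 32.4, 49.7 and 36.1 CPM in the homozygotes. Both genes overlapped between the groups, with homozygous 2 the highest of the 10 libraries in each, and showed log2 fold changes of 0.39 (SE 0.19) and 0.40 (SE 0.18).

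In complex I, Ndufa2, an accessory subunit with a thioredoxin-like fold, had 46.4, 60.7, 89.9, 68.5 and 59.7 CPM in the wild type and 76.5, 84.9, 88.0, 97.8 and 72.9 CPM in the homozygotes. All homozygous values were above 4 of the 5 wild-type values, and wild-type 3 was among the high ones; the log2 fold change was 0.37 (SE 0.14; unadjusted p = 0.0175, adjusted p by edgeR = 0.9998). Its exons overlap those of Tmco6 on the other strand. Ndufb8, an accessory subunit of the membrane arm, had 73.3, 99.1, 62.9, 88.5 and 82.4 CPM in the wild type and 89.5, 102.8, 110.7, 105.8 and 86.4 CPM in the homozygotes, a log2 fold change of 0.29 (SE 0.12), and Gm20538 overlaps it on the same strand. Ndufa11, a membrane subunit whose promoter is shown above, had 69.3, 103.6, 68.9, 87.9 and 84.3 CPM in the wild type and 90.9, 96.6, 105.2, 106.6 and 97.0 CPM in the homozygotes, a log2 fold change of 0.26 (SE 0.11). For both genes wild-type 2 lay within the homozygous range; of the rest only wild-type 4 did so, for Ndufb8.

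In complexes III and V the leading genes had larger p. Uqcrq, a small subunit of complex III, had 130.5 ± 24.9 CPM in the wild type and 151 ± 15.4 CPM in the homozygotes (SD, n = 5 each), for a log2 fold change of 0.21 (SE 0.12), and Uqcr11 one of 0.20 (SE 0.12). Wild-type 1 was the lowest of the 10 libraries for Uqcrq, at 88.5 CPM, as it was for Uqcr11, at 62.2 CPM. Atp5g2 had 12.8 ± 3.16 CPM in the wild type and 17.5 ± 3.31 CPM in the homozygotes, a log2 fold change of 0.46 (SE 0.24), with the shared sequence named above. Atp5f1, a subunit of the peripheral stalk, had one of 0.15 (SE 0.095).
Other subunits listed for each complex had smaller values: Ndufs1 0.079 (SE 0.086), Ndufv1 -0.053 (SE 0.093), Uqcrc1 0.068 (SE 0.091), Uqcrfs1 0.052 (SE 0.16), Cox4i1 0.00037 (SE 0.085), Atp5a1 -0.093 (SE 0.068), Atp5b -0.0050 (SE 0.076) and Atp5c1 0.10 (SE 0.11) on the log2 scale. These 8 had both signs and no difference of 2 standard errors, whereas Cox5a from the same listing was at 0.49, as given above. Core subunits of complex I also lay on both sides of 0. Ndufv2, like Ndufs7 named after its values were seen, had a log2 fold change of 0.18 (SE 0.088). Ndufs7 had 62.6 ± 6.31 CPM in the wild type and 53.2 ± 8.64 CPM in the homozygotes, a log2 fold change of -0.23 (SE 0.13).

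Single libraries carried much weight in these counts. The median deviation of the members from their own mean was -0.23 in wild-type 1, where 11 of 76 were above their mean, and 0.062, -0.050, 0.10 and -0.074 in wild-type 2 to 5. In homozygous 1 to 5 it was -0.068, 0.17, 0.079, 0.15 and -0.020, with 62 of 76 above their mean in homozygous 2. The groups overlapped, with wild-type 2 and 4 above homozygous 1 and 5. Without wild-type replicate 1 the median log2 fold change was 0.063 (50 of 76 above 0, 1 at an unadjusted p under 0.05), and without homozygous replicate 2 it was 0.055 (53 of 76, 5). Without homozygous replicate 4 it was 0.091 with 1 such member, and without wild-type replicate 3 it was 0.11 with 2. Without homozygous replicate 3 it was 0.087 with 3, and without wild-type replicate 4 it was 0.13 with 10. The number of all genes at that level moved too, with 418 of 14527 without wild-type replicate 1 and 372 of 14556 without homozygous replicate 2. It was 371 of 14500 without homozygous replicate 4 and 412 of 14559 without wild-type replicate 3. Without homozygous replicate 3 it was 370 of 14566, and without wild-type replicate 4 it was 725 of 14485. The spread behind this is that of the libraries: among members of at least 50 CPM, the median SD within groups was 0.19 on the log2 scale in 23KRA (42 members) and 0.10 in the deletion (66 members), and over all genes of that level it was 0.16 and 0.096. Macrophage and leukocyte markers summed to 79.8 CPM in wild-type 3 and to at most 19.9 CPM elsewhere in 23KRA, and their part was not tested.

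**Figure D3:**
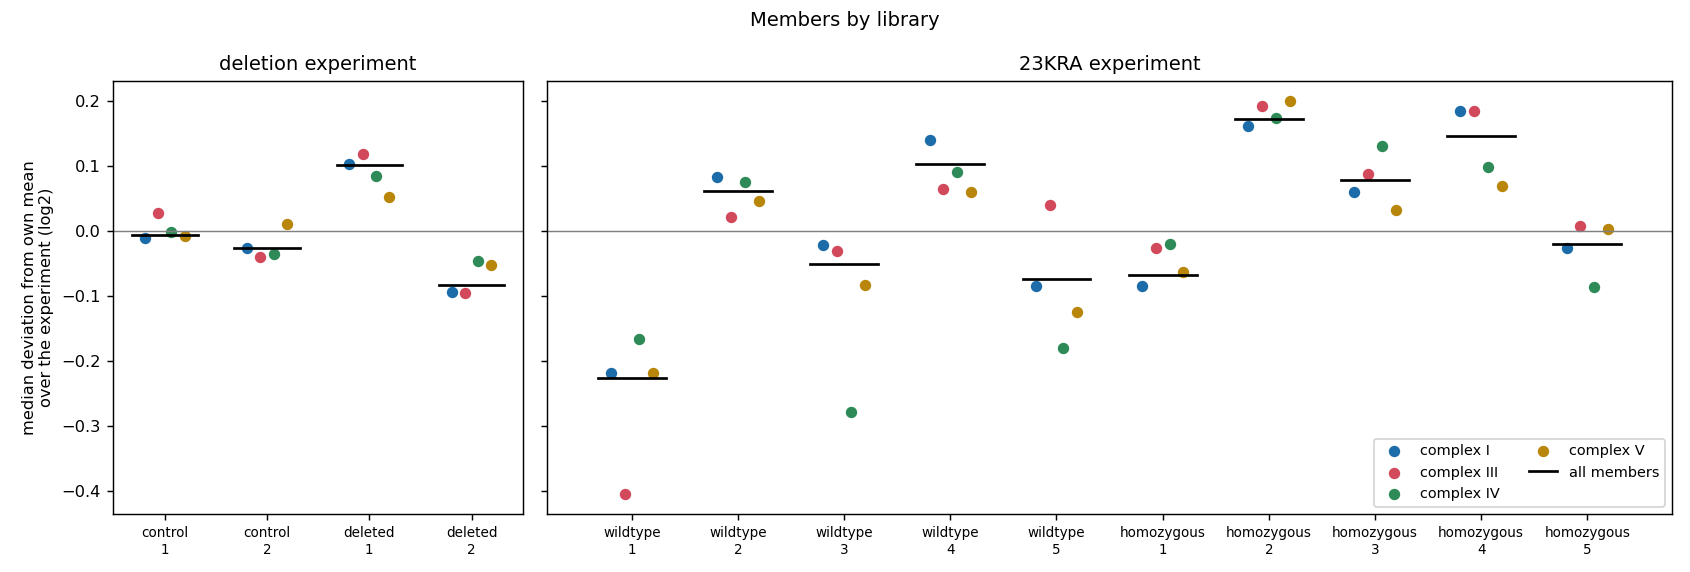
Median deviation of members from their own mean over the experiment, in log2 units, for each library and complex (colored points) and for all members (black lines). Deleted 1 and deleted 2 lie on opposite sides of the controls, and wild-type 1 is the lowest of the 23KRA libraries at -0.23.

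Within most libraries the complexes deviated to the same side; the exceptions were both controls, wild-type 5 and homozygous 5. In deleted 1 all 4 complex medians were above 0, from 0.053 in complex V to 0.12 in complex III, and in deleted 2 all 4 were below 0. In wild-type 1 all were below 0, with complex III at -0.40 and none of its 8 members above their own mean. In wild-type 3 complex IV, at -0.28, stood apart from complex I, at -0.021. In wild-type 5 complex III was at 0.040 while complex IV was at -0.18. Such differences between complexes within a library were not tested.

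The testis forms of complex IV subunits were all measured, and their balance with the common forms did not pass the test in either experiment. Levels of the paired genes are compared per kilobase. In deletion controls Cox7b2 had 125.9 CPM per kb and the common Cox7b, an X-linked gene, 21.0, while Cox6b2 had 60.1 against 249.7 for Cox6b1, and Cox8c 113.8 against 192.5 for Cox8a. In 23KRA wild type Cox7b2 had 25.2 against 22.1 CPM per kb for Cox7b, Cox6b2 7.07 against 62.1 for Cox6b1, and Cox8c 10.3 against 74.1 for Cox8a. Cox7b2 was thus the testis form nearest to or above its common form in both experiments. None of the 3 testis forms shares a 50-base word with another gene.

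Cox7b2 (chromosome 5, 71442824 to 71548205, minus strand) had 68.4 and 68.0 CPM in deletion controls and 70.8 and 69.5 CPM in deleted libraries, a range of under 3 CPM over 4 libraries. Its partner Cox7b (chromosome X, 106015700 to 106022450, plus strand) had 22.2 and 19.8 CPM in the control libraries and 22.8 and 19.5 CPM in the deleted ones. The log2 ratio of Cox7b2 to Cox7b was 1.68 ± 0.11 in controls and 1.71 ± 0.14 in deleted libraries (SD, n = 2 each). In 23KRA, Cox7b2 had 14.5, 14.1, 8.88, 19.4 and 11.5 CPM in the wild type and 16.8, 19.0, 18.2, 18.2 and 12.9 CPM in the homozygotes. Cox7b had 18.0, 34.1, 12.0, 25.8 and 20.7 CPM in the wild type and 12.7, 15.4, 26.5, 20.3 and 18.1 CPM in the homozygotes. The ratio was -0.64 ± 0.39 in wild type and -0.095 ± 0.42 in homozygotes, a difference of 0.54 (exact two-sided permutation p = 0.0873, adjusted over 4 pairs 0.349, smallest possible 0.00794). The ranges of the ratio overlapped, from -1.24 to -0.31 in wild type and from -0.53 to 0.38 in homozygotes.

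Cox8c (chromosome 12, 102899316 to 102900526, plus strand) had 51.3 and 53.0 CPM in deletion controls and 41.3 and 48.9 CPM in deleted libraries, a log2 fold change of -0.21 (SE 0.13; adjusted p by edgeR = 0.971). Over the deletion libraries the spermatid marker sum had the same order as Cox8c. It rose from deleted 1 (2279 CPM) through deleted 2 (2613 CPM) and control 1 (2627 CPM) to control 2 (2954 CPM). The part of later germ cells in the Cox8c values was not tested. Cox8a (chromosome 19, 7215153 to 7217616, minus strand) had 105.5 and 106.2 CPM in the control libraries and 124.2 and 107.8 CPM in the deleted ones. The log2 ratios of Cox8c to Cox8a and of Cox6b2 to Cox6b1 were lower in both deleted libraries than in both controls, by 0.34 and 0.40 in the means, and exact permutation tests of 2 against 2 gave p = 0.333, the smallest they can give (adjusted 0.444). In 23KRA both testis forms were at a few CPM: Cox6b2 had 4.99, 5.13, 1.48, 3.70 and 7.91 CPM in the wild type and 2.12, 8.05, 3.10, 5.42 and 7.45 CPM in the homozygotes, and Cox8c 9.27, 4.78, 2.38, 3.99 and 3.22 CPM and 2.12, 1.05, 3.65, 6.42 and 5.56 CPM. Their ratios to the common forms differed by -0.24 and -0.59 with exact two-sided permutation p of 0.643 and 0.381 (adjusted 0.722 for both). Spermatid markers were highest in wild-type 5 (972 CPM) and homozygous 5 (986 CPM) and lowest in homozygous 2 (216 CPM). The Cox6b2 values of these 3 libraries, 7.91, 7.45 and 8.05 CPM in that order, were the highest of the 10, and the part of later germ cells in them was not tested.

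**Figure D4:**
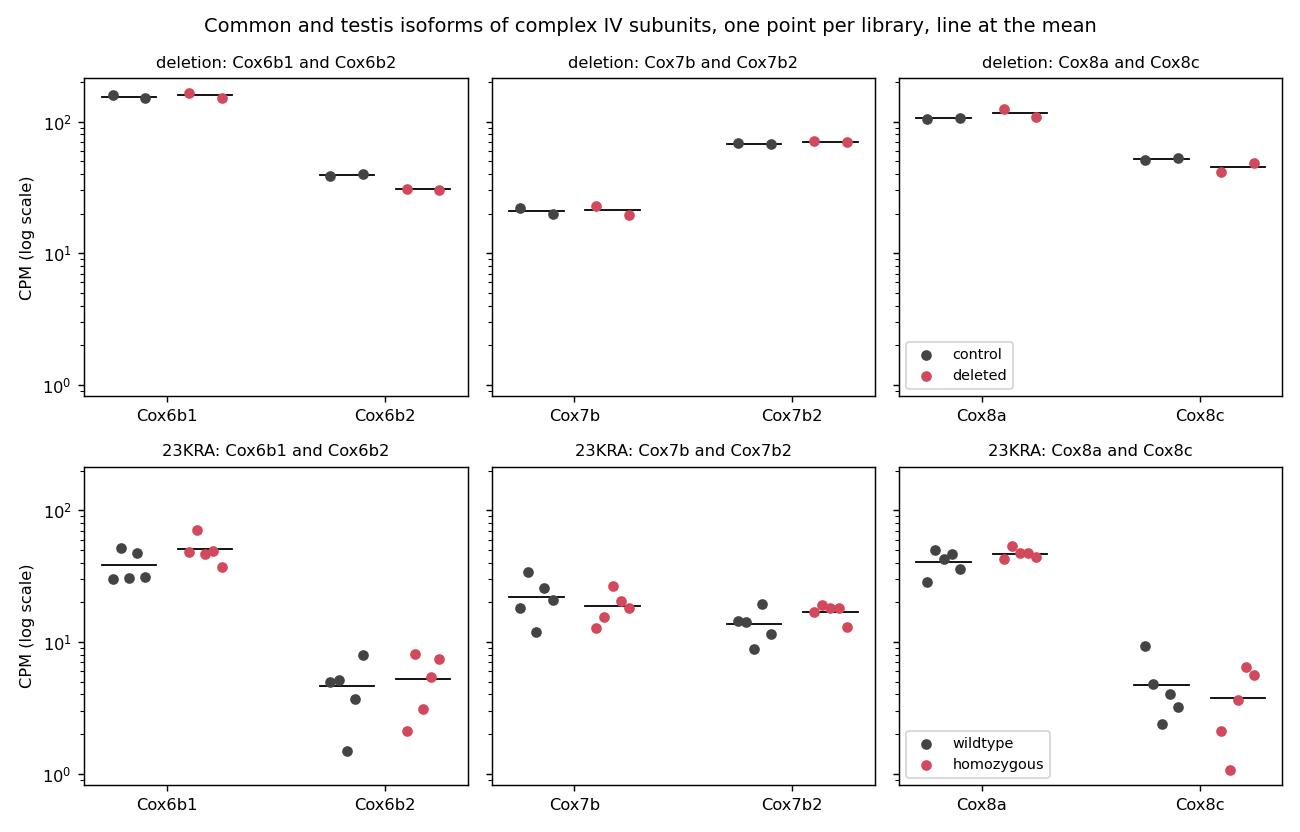
CPM of 3 common complex IV subunits and their testis forms in each library, on a log axis; points are libraries and lines are group means, with the deletion experiment above and 23KRA below. Cox7b2 lies above Cox7b in all 4 deletion libraries and near it in 23KRA, and Cox6b2 is lower in both deleted libraries than in both controls.

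Of the muscle-type forms, Cox7a1 was the only one tested. It had 3.15 and 2.61 CPM in deletion controls and 4.08 and 3.66 CPM in deleted libraries, without overlap and with a log2 fold change of 0.43 (SE 0.24; adjusted p by edgeR = 0.971). In 23KRA it ran from 0 to 2.95 CPM in the wild type and from 0.463 to 7.03 CPM in the homozygotes. Its log2 ratio to Cox7a2 differed by 0.34 in the deletion (exact permutation p = 0.333, the smallest possible) and by -0.32 in 23KRA (exact permutation p = 0.722).

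Genes that work with these complexes were taken from a separate list of 73, of which 71 were tested in the deletion and 69 in 23KRA. By edgeR's test 0 passed in either experiment. At an unadjusted p under 0.05 were 1 in the deletion and 3 in 23KRA, beside 793 of all 16725 genes and 432 of all 14208. In the deletion 46 of 71 were above 0 with a median log2 fold change of 0.035, and in 23KRA 37 of 69 with a median of 0.043, where the members' own counts were 47 of 77 and 61 of 76. Of all genes tested, 49.0% were above 0 in the deletion and 50.8% in 23KRA. Complex II, which feeds electrons from succinate and lies outside the rule, had all 4 subunits above 0 in the deletion (median 0.058) and 3 of 4 in 23KRA (median 0.10). Complex I assembly factors were above 0 in 12 of 15 in both experiments, with medians of 0.088 and 0.091. Complex IV assembly factors had 11 of 19 above 0 in the deletion and 7 of 19 in 23KRA, with medians of 0.012 and -0.033. Of these, Lrpprc, which stabilises mitochondrial transcripts, had 180 ± 1.36 CPM in deletion controls and 197.6 ± 17.1 CPM in deleted libraries. Regulators of mitochondrial gene expression had medians of -0.0035 and 0.033, and Gabpa, a subunit of the ETS-family factor GABP, showed log2 fold changes of 0.15 (SE 0.11) and -0.0036 (SE 0.077). Slc25a31, the testis carrier that exchanges ADP and ATP across the inner membrane, had 688.5 ± 70.9 CPM in deletion controls and 725 ± 78.1 CPM in deleted libraries (SD, n = 2 each), with a log2 fold change of 0.075 (SE 0.11). In 23KRA it had 106.9 ± 8.47 CPM in the wild type and 133.7 ± 8.91 CPM in the homozygotes (SD, n = 5 each), with a log2 fold change of 0.32 (SE 0.089; unadjusted p = 0.00171, adjusted p by edgeR = 0.9998). The others with an unadjusted p under 0.05, named after their values were seen, were Slc25a4, a further carrier of ADP and ATP, with 14.3 and 18.3 CPM in deletion controls and deleted libraries, and in 23KRA Coa4, an assembly factor of complex IV, with 2.28 and 6.00 CPM, and Dmac2, with 21.3 and 15.2 CPM in the wild type and homozygotes.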

How the data were processed

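Bulk RNA sequencing gave raw counts of reads per gene, which the authors deposited as 2 tables of 24984 symbols. The submitters' processing notes name STAR 2.5.3 and mm10, Trim Galore 0.4.3, Subread 1.5.0 with featureCounts, and SAMtools 1.4.1. Which annotation was used, and how strand and reads with several matches were handled, is not given in the sources used here, so overlapping and near-identical genes may share or lose counts. Genes of mitochondrial DNA (mt- symbols) were not analysed here.

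From these counts, each experiment was filtered (filterByExpr), scaled (TMM) and tested alone in edgeR 4.0.16 (R 4.3.3) by a two-sided quasi-likelihood test with Benjamini-Hochberg adjustment over all genes at 0.05, with residual degrees of freedom of 2 (deletion) and 8 (23KRA) before spread was shared across genes. CPM uses the scaled library sizes. Isoform ratios are log2 ratios of CPM with 0.5 added. Exonic lengths, positions and 50-base words are from GENCODE annotation of GRCm38 through symbols, which matched for all 81 members. Alternatives used DESeq2 1.42.0 and limma 3.58.1, other filters and scalings, a replicate block and each library left out. The test was also run on simulated data, the outcome of which is not reported here.

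Named members are, per complex and comparison, the 2 of smallest p and the 2 highest per length, the isoform pairs and a listed set of subunits from all 4 complexes, of which 1 is not reported here; from each other list, the 2 of highest CPM. The members and lists were chosen with earlier results of these data known. Protein sequences were not used here. Amplified reads are not independent molecules, so counting precision was not derived from depth. The p-values measure the spread between libraries.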

Additional observations from a re-analysis of the deposited data

Results flagged for a closer look

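Outlying libraries were looked for in groups of 5 by Dixon's criterion with a critical value of 0.71, over 72 values, of which 4 met it; chance flags about 1 in 20 such groups. The Cox5a level of wild-type 5, 37.87 CPM, lay far above the next wild-type library at 23.98 CPM. The Atp5g2 level of wild-type 3, 7.269 CPM, lay below the next at 12.95 CPM. The median deviation of complex III in wild-type 1, -0.4045 on the log2 scale, lay below the other wild-type libraries, the nearest of which was at -0.0302. The Cox7a1 level of homozygous 3, 7.029 CPM, lay above the next homozygous library at 1.781 CPM.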

How the results depend on the processing

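In both experiments 0 members passed under every alternative run. Genes called in the deletion numbered 2 in the fit as reported, 8 without a filter, 1 with a filter at 5 CPM, 1 with DESeq2, 1 with limma-voom and 2 to 73 with 1 library left out, 73 without deleted replicate 2 and 11 without control replicate 1. After centring within groups, same-numbered libraries correlated at 0.41 in the deletion and at 0.23, 0.43, -0.043, 0.25 and 0.38 in 23KRA. In the deletion, centring groups of 2 makes the correlations of both replicate numbers equal, so they are 1 value, and each deleted library correlated best with the control of its own number. In 23KRA, 4 of 5 homozygous libraries correlated best with the wild-type library of their own number. The fit as reported did not take the numbers as pairs, and whether same-numbered libraries share a batch was not tested. With the replicate block in edgeR the deletion had 62 genes called and 23KRA had 2, with 0 members in either. At an unadjusted p under 0.05 the deletion then had 5 of 77 members (2 higher), beside 1755 of all 16725 genes. At that level 23KRA had 11 of 76 members (11 higher), beside 911 of all 14208 genes. The members' median stayed between 0.014 and 0.027 in the deletion and between 0.10 and 0.11 in 23KRA under other scalings, filters, tools and the block. Members above 0 numbered 53 of 77 in the deletion with DESeq2 size factors (68.8%). Some members with fold changes near 0 changed sign, and the cause was not tested. In the deletion, DESeq2 size factors or DESeq2 gave 0.0063 for Uqcr11 and 0.0049 for Atp5mpl, and no filter gave -0.00021 for Ndufc1. In 23KRA, Cox4i1 was at -0.0044, -0.0066, -0.0059, -0.00032 and -0.0043 with size factors, with upper quartile scaling, without a filter, with the 5 CPM filter and with DESeq2, and Atp5b at 0.00017 with limma-voom. With 1 library left out, where a lone library is taken to vary like the rest, the log2 fold change in the deletion ran from -0.056 to 0.063 for Ndufc1, -0.0079 to 0.14 for Uqcrc2, -0.10 to 0.13 for Uqcrh, -0.13 to 0.12 for Uqcr11, -0.099 to 0.10 for Cox4i1, -0.040 to 0.052 for Cox6c, -0.038 to 0.034 for Atp5mpl, -0.13 to 0.017 for Atp5b, -0.031 to 0.10 for Cox6b1, -0.10 to 0.12 for Cox7b, -0.055 to 0.14 for Cox6a1, -0.028 to 0.11 for Cox7a2, -0.11 to 0.0042 for Ndufv1, -0.20 to 0.081 for Uqcrfs1, -0.023 to 0.12 for Atp5c1 and -0.067 to 0.13 for the ratio of Cox7b2 to Cox7b. In 23KRA it ran from -0.045 to 0.056 for Cox4i1, -0.055 to 0.062 for Atp5mpl, -0.055 to 0.45 for Cox6b2, -0.61 to 0.066 for Cox8c, -0.84 to 0.65 for Cox7a1, -0.00032 to 0.13 for Uqcrc1, -0.026 to 0.18 for Uqcrfs1, -0.048 to 0.029 for Atp5b and -0.49 to 0.045 for the ratio of Cox6b2 to Cox6b1. The deletion has 2 libraries a group, so exact tests there cannot go below 0.333.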
